A study of Mus musculus with 3 samples.

Results

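Fibroblasts and perivascular stromal cells of 3 TH-MYCN mouse neuroblastomas were described here, as 146 of the 5650 cells that the study kept after its quality filters. TH-MYCN mice carry a human MYCN transgene driven by the tyrosine hydroxylase promoter and develop neuroblastoma, a tumor of the sympathetic nervous system. The animals were untreated as far as the labels state, all were heterozygous for the transgene, and each gave 1 tumor, at 62 days (tumor 1), 79 days (tumor 2) and 63 days (tumor 3). Whole tumors were dissociated with enzymes and their cells were captured in droplets for 3′ single-cell RNA sequencing, in which each captured mRNA molecule is counted once by a unique molecular identifier (UMI). There was 1 group of tumors and no tumor-free tissue, so comparisons were made between classes of cells within these 3 tumors.

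Fibroblasts build the collagen-rich interstitial matrix of a tissue and secrete growth factors and chemokines. Pericytes and vascular smooth muscle cells, together called perivascular cells, wrap around the endothelium, share its basement membrane and contract. Both kinds of cell express collagen genes and the platelet-derived growth factor receptor Pdgfrb. The proteoglycans Dcn and Lum and the receptor Pdgfra mark fibroblasts, while Rgs5, a regulator of G protein signaling, and the receptor Notch3 mark perivascular cells. In tumors these cells are grouped as cancer-associated fibroblasts, or CAFs.

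The cells were chosen by their own raw counts. A kept cell was taken when at least 3 of 9 stromal genes (Dcn, Lum, Col1a1, Col1a2, Col3a1, Pdgfra, Pdgfrb, Rgs5 and Notch3) had a UMI, fewer than 3 of 6 endothelial genes (Cdh5, Vwf, Kdr, Flt1, Egfl7 and Emcn) had one, and fewer than 2 of 3 mesothelial genes (Msln, Upk3b and Krt19) had one. These 18 genes are described without a test. The rule took 113 of 1914 kept cells in tumor 1 (5.90%, exact binomial 95% interval 4.89 to 7.06), 6 of 1221 in tumor 2 (0.491%, 0.181 to 1.07) and 27 of 2515 in tumor 3 (1.07%, 0.709 to 1.56). The mean share was 2.49% ± 2.97 (SD, n = 3 tumors). These are shares of captured cells after dissociation, and the intervals cover counting error only. The taken cells held 1559019, 49656 and 122169 UMIs in tumors 1, 2 and 3, so tumor 1 gave most of the depth and tumor 2 rested on 6 cells. They were deeper than the other kept cells, with a median of 10929, 7386 and 2903 UMIs per cell against 4148, 1592 and 1812.

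Many cells of tumor 1 passed the rule only narrowly. In that tumor 51 of 113 cells had exactly 3 stromal genes detected and 60 had fewer than 10 UMIs over the 9 genes. Of the 113 cells, 70 also had UMIs of at least 2 of 5 leukocyte genes, and 51 were both leukocyte-positive and below 10 stromal UMIs. Among the other kept cells of tumor 1, 1379 of 1801 had at least 2 leukocyte genes, and 1338 of these were classed as leukocytes. Of its endothelial cells, described further on, 10 of 36 had them. No gated cell of tumor 2 or 3 had 2 of the leukocyte genes. In tumor 3, 8 of 27 cells had fewer than 10 stromal UMIs. There 25 of 27 had UMIs of at least 2 of 11 tumor cell genes, as had 2267 of 2488 other kept cells. Of those others 1815 were classed as tumor cells, so their share says little about the label. At least 2 tumor cell genes were also found in 22 of 23 endothelial cells of tumor 3 and in 49 of its 87 leukocytes. The part of tumor cell RNA in the gated cells was not tested. The label was therefore weakly based for part of the cells, and 78 cells (53, 6 and 19 in tumors 1, 2 and 3) had at least 10 stromal UMIs. Of these 78, 19, all in tumor 1, had at least 2 leukocyte genes. A further 3 of tumor 1 carried 5 to 7 of 8 Schwann cell genes and no UMI of Dcn, Lum, Rgs5 or Notch3, so the label did not hold for them. In tumor 3, 18 of its 19 cells with at least 10 stromal UMIs had at least 2 tumor cell genes. The limit of 10 stromal UMIs was set after the data were seen. Levels are given for all 146 cells, and tests also for these 78 stroma-rich cells where a call or a count is compared. How far leukocyte RNA or mixed droplets entered the other 68 cells was not tested.

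**Figure D1:**
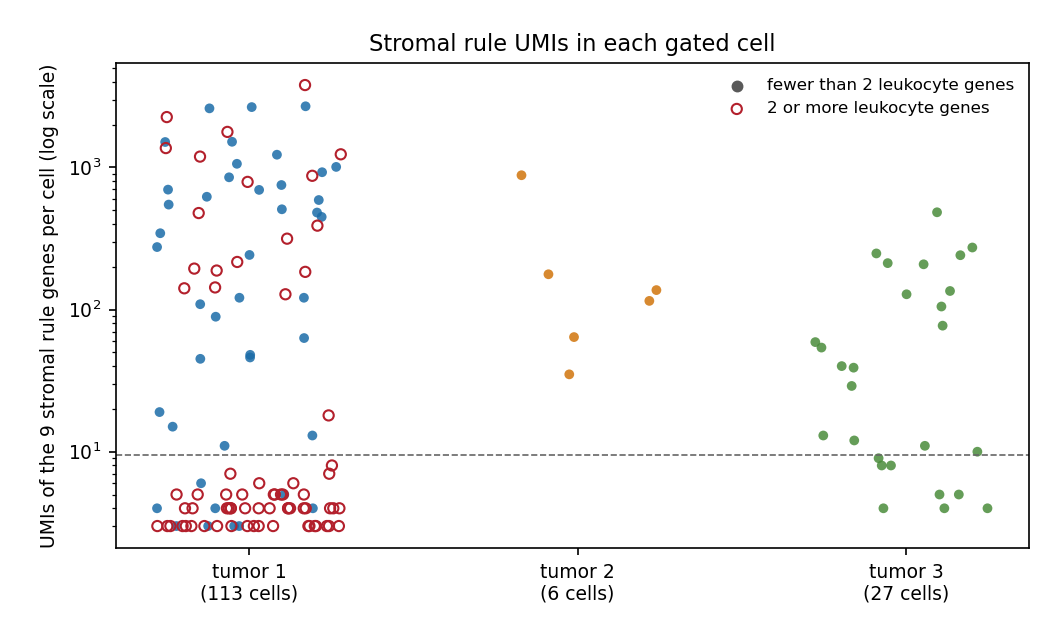
Each point is 1 of the 146 gated cells, placed by tumor (x axis) and by its summed UMIs of the 9 stromal genes (y axis, log scale); open red circles mark cells with UMIs of at least 2 of 5 leukocyte genes and the dashed line separates cells with fewer than 10 stromal UMIs. In tumor 1, 60 of 113 cells sit under the line and 51 of these are open circles, while all 6 cells of tumor 2 and 19 of 27 cells of tumor 3 sit above it.

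Just outside the rule, 202, 3 and 19 kept cells had exactly 2 stromal genes detected, with a median of 2, 3 and 2 stromal UMIs, against a median of 4 in the 51 cells with exactly 3 genes in tumor 1 and of 5 in the 7 such cells of tumor 3. The mesothelial limit removed few cells but many transcripts. It stopped 16, 5 and 3 cells, and these held 6671 of 8070, 1672 of 1776 and 262 of 551 stromal UMIs found in all other kept cells (82.7%, 94.1% and 47.5%). The level of matrix genes in the comparison class thus includes a few matrix-rich cells. No cell barcode was shared between the gated cells of different tumors.

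The gated cells carried the collagen I and III genes at the highest level of the 9 stromal genes. Levels are given as a gene's UMIs per 1000000 UMIs of a class summed over 1 tumor (CPM), in the order tumor 1, tumor 2, tumor 3. Col1a1, a chain of the main fibrillar collagen of connective tissue, stood at 7435, 6908 and 4813 CPM, against 93.7, 111 and 17.9 CPM in all other kept cells. Col3a1, the chain of collagen III, stood at 7038, 8277 and 4715 CPM, and Dcn at 2525, 4330 and 1514 CPM. Pdgfrb stood at 282, 322 and 450 CPM and Pdgfra at 137, 222 and 24.6 CPM. Fibroblast markers were lowest and Rgs5 highest in tumor 3: Lum was at 495, 362 and 147 CPM and Rgs5 at 1082, 1913 and 3741 CPM. Because the rule picked cells on these genes, their excess is no finding. The levels of tumor 1 given here and below include its cells with few stromal UMIs: in its stroma-rich cells alone Col1a1 stood at 11878, Mgp at 7245 and Acta2 at 3471 CPM, against 7435, 4528 and 2170 CPM in all its gated cells. The 8 fibrillar collagens summed to 35140 against 21990 CPM, the 29 matrix glycoproteins to 37820 against 23750 CPM and the chemokines Ccl2, Cxcl1 and Cxcl12 to 1133 against 711 CPM.

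For the other genes, counts of the gated cells and of all other kept cells were summed within each tumor, and 10846 genes were tested by edgeR's quasi-likelihood method with Benjamini-Hochberg adjustment. The tested genes come from the same cells the rule picked, so the counts describe these cells and are not independent evidence of their type. Higher in the gated cells were 423 genes (3.90%), and 8 genes (0.0738%) were lower. In the stroma-rich cells 550 of 10442 genes were higher (5.27%) and 54 lower (0.517%). With the tumor as a block, 789 genes were higher (7.27%) and 226 lower (2.08%). A gene rare elsewhere entered the test through the gated cells, so the counts among tested members of a list given below are a description. The calls depended on tumor 2, the one with 6 gated cells: without it the test called 0 genes (681 higher and 74 lower at unadjusted p under 0.05), and in the stroma-rich cells 80 higher and 2 lower. The median log2 fold change of all tested genes was -0.29.

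Matrix genes were higher across all the lists examined. All 3 tested chains of fibrillar collagens beyond those of the rule (median log2 fold change 6.04), all 7 other collagens (6.53) and 20 of 29 matrix glycoproteins and proteoglycans (4.61) were higher, and none was lower. Col5a1, a chain of collagen V, which sets the diameter of collagen fibrils, was at 600, 483 and 393 CPM in the gated cells and at 8.04, 10 and 2.75 CPM in the others. Its log2 fold change was 6.04 ± 0.66 (SE, adjusted p = 0.0027). Col6a3, a chain of the microfibrillar collagen VI, was at 768, 443 and 696 CPM against 6.23, 1.11 and 2.55 CPM (7.36 ± 0.79, adjusted p = 0.0027). The fibril-associated Col14a1 was higher by 6.69 ± 0.97 (adjusted p = 0.0056). In every collagen named here the lowest tumor of the gated cells lay far above the highest tumor of the others. How often this holds among all tested genes was not counted.

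Among the glycoproteins, Mgp, an inhibitor of calcification, reached 4528, 9626 and 10960 CPM, against 231, 85.5 and 122 CPM in the others (5.62 ± 0.54, adjusted p = 0.0019). Sparc, a collagen-binding matricellular protein, was at 6899, 7693 and 7195 CPM against 565, 351 and 225 CPM (4.09 ± 0.42, adjusted p = 0.0025). The 3 tumors agreed closely in Sparc and differed by more than 2-fold in Mgp, with tumor 1 lowest. Fn1, the fibronectin gene by which the study marked its CAFs, was at 3432, 3262 and 2226 CPM against 262, 126 and 47.1 CPM (4.21 ± 0.66, adjusted p = 0.0081). Postn, which encodes periostin, was at 1205, 685 and 1130 CPM against 4.52, 1.11 and 5.3 CPM, a log2 fold change of 7.91 ± 0.75 (adjusted p = 0.0019). Thbs2, encoding thrombospondin-2, was at 120, 101 and 98.2 CPM and at 0.542, 0 and 0.196 CPM in the others (8.08 ± 0.78, adjusted p = 0.0019). Bgn, encoding biglycan, Eln, encoding elastin, Fbn1, encoding fibrillin-1, and Tnc, encoding tenascin-C, were higher as well (log2 fold changes 4.85, 4.86, 6.24 and 5.12).

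Of the genes that make, trim or crosslink collagen, 13 of 17 were higher. Serpinh1, the collagen chaperone, was at 1349, 705 and 1080 CPM against 102, 35.7 and 30.6 CPM (4.08 ± 0.65, adjusted p = 0.0084). The crosslinking oxidases Lox and Loxl1 were higher by 4.77 ± 0.74 and 5.05 ± 0.69, and Adamts2, which removes the propeptide of procollagen, by 5.92 ± 0.64 (adjusted p = 0.0076, 0.0046 and 0.0027). Of 16 tested matrix proteases and their inhibitors, 13 were higher. They included the gelatinase Mmp2 (185, 161 and 196 CPM against 6.87, 6.69 and 1.77 CPM, 5.01 ± 0.65) and Serpinf1, the antiangiogenic factor PEDF (6.49 ± 0.90). Mmp3, encoding stromelysin-1, was at 22.4, 60.4 and 81.9 CPM, and a single UMI was found among all other kept cells, a ratio of pooled counts per UMI of 523 (exact 95% counting interval 89.5 to 21076, adjusted p = 0.0025). Timp1 showed no call without the block (446, 765 and 221 CPM against 30.3, 133 and 3.53 CPM, adjusted p = 0.27) and was called with the tumor as a block (adjusted p = 4.2e-11).

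Basement membrane genes were higher in 10 of 14 cases (median 3.07), and in 13 with the block. Col4a1, a chain of collagen IV, the network of all basement membranes, was at 2284, 2054 and 2513 CPM against 256, 143 and 90.3 CPM (3.65 ± 0.49, adjusted p = 0.0045). Col4a2 behaved alike (3.46 ± 0.44, adjusted p = 0.0039), as did the linker Nid1 (4.72 ± 0.63, adjusted p = 0.0045) and the endostatin precursor Col18a1 (3.71 ± 0.59, adjusted p = 0.0081). The laminin chain Lama2 had the largest change of the list, from 0.271, 0.743 and 0.196 CPM to 34.6, 101 and 90 CPM (7.30 ± 0.77, adjusted p = 0.0025).

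**Figure D2:**
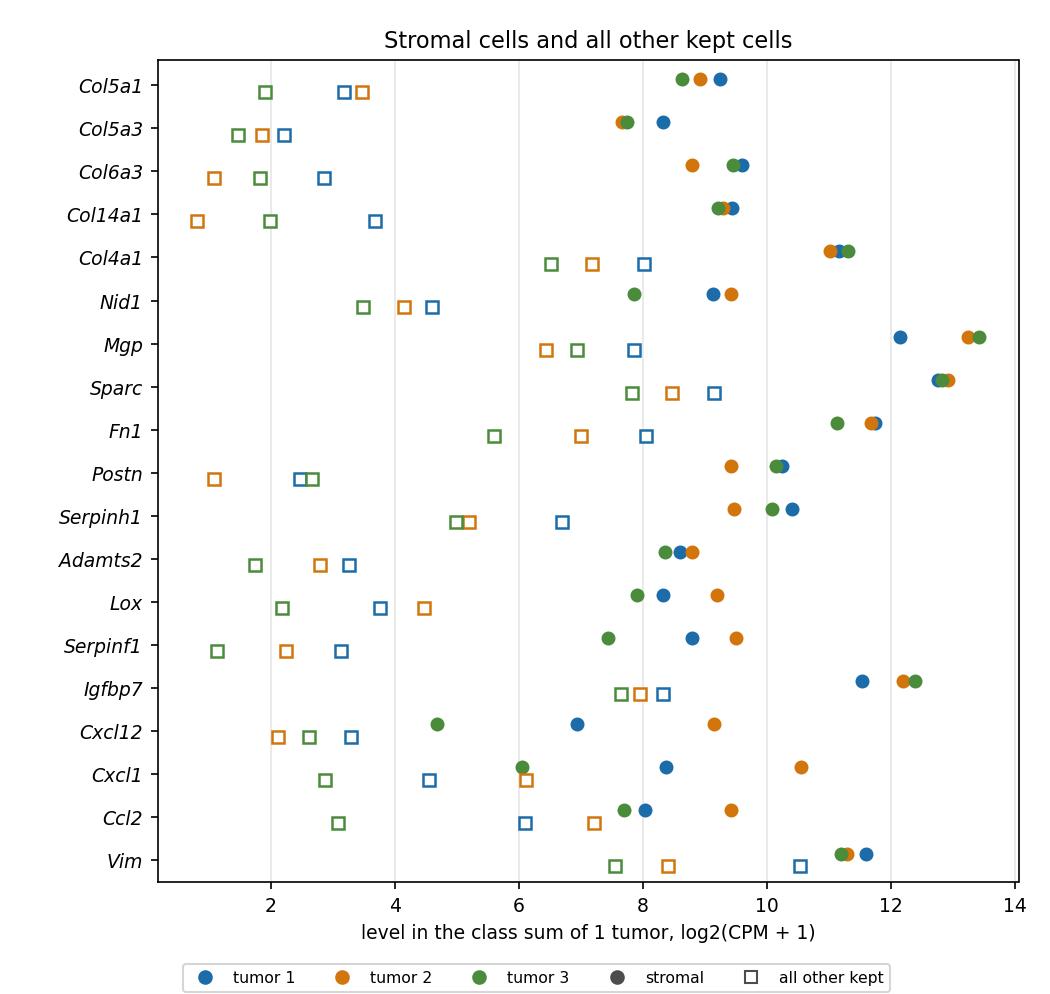
Level of 19 genes in each tumor as log2(CPM + 1) on the x axis, with filled circles for the gated stromal cells and open squares for all other kept cells, 1 color per tumor. For the collagens, Col4a1, Mgp, Sparc, Fn1 and Postn the 3 circles lie to the right of all 3 squares, whereas for Cxcl1 the circle of tumor 3 (65.5 CPM) lies left of the square of tumor 2 (68.4 CPM).

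Smooth muscle contractile genes formed the other broad group, with 15 of 16 tested members higher (median 6.03). Acta2, the smooth muscle actin gene, was at 2170, 2356 and 3479 CPM against 43.9, 33.8 and 21.2 CPM (6.16 ± 0.48, adjusted p = 0.0019). The actin-binding Tagln was at 1205, 1410 and 2398 CPM (6.82 ± 0.71, adjusted p = 0.0025), the smooth muscle myosin heavy chain Myh11 at 224, 785 and 336 CPM (7.81 ± 0.70, adjusted p = 0.0019), and the regulatory light chain Myl9 at 268, 362 and 475 CPM against 3.25, 1.49 and 2.16 CPM (7.06 ± 0.58, adjusted p = 0.0019). In all 4 genes the gated cells exceeded the others in every tumor, which was not counted over all tested genes. Of the 12 tested pericyte genes 8 were higher, among them Higd1b, a mitochondrial protein gene used as a pericyte marker (6.89 ± 0.79), the potassium channel subunit Abcc9 (4.33 ± 0.70), the adhesion molecule Mcam (192, 222 and 360 CPM, 3.57 ± 0.48) and the transcription factor Foxs1 (6.05 ± 0.87). Kcnj8, the channel partner of Abcc9, had UMIs only in tumor 1 of the gated cells (12.2, 0 and 0 CPM) and was not tested.

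Since the contractile genes moved together, their promoters were searched for the CArG box, the motif bound by serum response factor at many muscle genes. RefSeq promoters, 250 bases before the gene start, were given for 14 of the 18 listed contractile genes. The box, whose definition reads the same on both strands, was found in 1 of these 14, Myl9, and in 482 of 32851 promoters (1.47%). In Myl9 it starts 161 bases before the RefSeq start, in the window chr2:156775214-156775463 (GRCm38.p6, + strand). The sequence is shown because it is the only match among these genes, with the box in capitals.
Myl9: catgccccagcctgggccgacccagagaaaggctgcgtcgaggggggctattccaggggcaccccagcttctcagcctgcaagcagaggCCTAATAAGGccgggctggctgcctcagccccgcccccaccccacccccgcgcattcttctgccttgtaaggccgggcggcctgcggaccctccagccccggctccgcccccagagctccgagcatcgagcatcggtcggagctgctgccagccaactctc
A match to the letters is a description and no match says only that the letters are absent from this window.

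Of 20 tested mesenchymal transcription factor genes, 7 were higher in all gated cells, 9 in the stroma-rich cells and 14 with the block. Prrx1, a homeobox gene of limb and connective tissue mesenchyme, was at 158, 242 and 81.9 CPM against 1.26, 1.11 and 1.18 CPM (6.84 ± 0.64, adjusted p = 0.0019), and Twist1 was higher by 4.51 ± 0.96 (adjusted p = 0.032). The Notch target genes Heyl and Hey2 were higher by 6.21 ± 0.71 and 6.25 ± 0.94 (adjusted p = 0.003 and 0.0068). Ebf1 (375, 524 and 638 CPM against 193, 32.3 and 42.2 CPM) and Klf4 were not called (adjusted p = 0.17 and 0.45), and both were with the block (2.6e-06 and 0.045). Zeb2 (adjusted p = 0.56) and Klf2 (0.96) were not called in either fit. Of the 11 tested fibroblast surface and structural genes only Ddr2, a collagen receptor, Clec3b, encoding tetranectin, and the actin-severing Gsn were higher, and 7 were with the block. Vim, encoding vimentin, was at 3103, 2497 and 2325 CPM against 1480, 337 and 185 CPM (adjusted p = 0.34, and 9.1e-07 with the block), so its 3 gated values lay above all 3 others without a call in the unblocked test.

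By the rule of largest change, the genes most above the others beyond Dpt, Mmp3, Thbs2 and Postn were Dpep1, Olfr558, Islr and Ms4a4d. Dpep1, a dipeptidase gene, was at 75.7, 443 and 16.4 CPM with 1 UMI among all other kept cells, a ratio of 1547 (counting interval 273 to 61518, adjusted p = 0.0046). Islr, which encodes the mesenchymal protein meflin, was at 158, 362 and 164 CPM against 0.813, 0.372 and 0.589 CPM (8.16 ± 0.67, adjusted p = 0.0019). Dpt, encoding dermatopontin, was at 474, 342 and 147 CPM (8.13 ± 1.05, adjusted p = 0.0039). Olfr558, an odorant receptor gene, was at 37.2, 161 and 90 CPM with 3 UMIs elsewhere, a ratio of 280 (counting interval 92.2 to 1385). Ms4a4d was at 36.6, 121 and 32.7 CPM, also with 3 UMIs elsewhere, a ratio of 243 (79.7 to 1209).

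Secreted signals were called gene by gene. Of 16 tested chemokine and cytokine genes 4 were higher: Ccl11, the eosinophil attractant (7.27 ± 1.06), Il34, a ligand of the macrophage receptor Csf1r (5.83 ± 0.74), Cxcl12, a ligand of Cxcr4 (5.0 ± 1.02, adjusted p = 0.028), and Cx3cl1 (4.90 ± 0.93). With the block 11 were higher and 1 lower. Cxcl12 was at 121, 564 and 24.6 CPM against 8.76, 3.34 and 5.1 CPM, so tumor 3 lay far under the other tumors. Cxcl1, a neutrophil attractant, was at 329, 1490 and 65.5 CPM against 22.4, 68.4 and 6.28 CPM (4.08 ± 1.17, adjusted p = 0.13, and 6.9e-11 with the block). Ccl2, a monocyte attractant, was at 261, 685 and 205 CPM against 67.5, 147 and 7.46 CPM (2.18 ± 0.92, adjusted p = 0.38, and 3.5e-06 with the block). In all 3 chemokines tumor 2 was highest and tumor 3 lowest, and 6 cells stand behind the values of tumor 2. The study named these chemokines from the same tumors, so they are not independent evidence of their direction.

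Growth factor genes were higher in 7 of 21 cases. Bmp2 (6.18 ± 0.84) and the activin subunit Inhba (4.42 ± 0.81) belong to the TGF-beta family, as do Tgfb3 (128, 60.4 and 73.7 CPM against 3.79, 6.69 and 6.09 CPM, 4.0 ± 0.57) and Tgfb2 (3.50 ± 0.57). Tgfb1 was not called (246, 101 and 57.3 CPM against 318, 69.1 and 56.2 CPM, adjusted p = 0.98). Pdgfa, a ligand of Pdgfra, was at 141, 121 and 172 CPM against 12.6, 6.32 and 6.09 CPM (3.95 ± 0.54, adjusted p = 0.0047), and Pdgfc was higher as well (4.08 ± 0.62). Angpt2, a ligand of the endothelial receptor Tie2, was at 94.3, 121 and 115 CPM against 5.6, 21.6 and 7.46 CPM (3.13 ± 0.61, adjusted p = 0.022). Of the 6 tested Wnt and BMP antagonists 4 were higher, Sfrp1, Sfrp2, Nbl1 and Dkk3 (3.86 to 6.66), while Sfrp4 had UMIs only in tumor 1 (126, 0 and 0 CPM, adjusted p = 0.42). Igfbp7, an IGF-binding protein of the vessel wall, was at 2963, 4692 and 5345 CPM against 318, 245 and 199 CPM (3.91 ± 0.37, adjusted p = 0.0019) and was the only 1 of 6 IGF-binding protein genes called, with 4 called in the blocked fit.

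Of 17 tested receptor genes 6 were higher, 9 in the stroma-rich cells and 11 with the block. They were the endothelin receptor Ednra (27.6, 20.1 and 164 CPM, 6.50 ± 0.97), Ddr2 (5.93 ± 0.76), the sphingosine-1-phosphate receptor S1pr3 (4.98 ± 0.68), Il1r1, the receptor for interleukin-1 (4.26 ± 0.68), Egfr (3.88 ± 0.77) and Fgfr1 (3.59 ± 0.55). Tgfbr2 and Il6st were not called (adjusted p = 0.45 and 0.14). Of 10 integrin genes only the collagen-binding subunits Itga11 and Itga1 were higher (6.43 ± 1.11 and 5.24 ± 0.53), and Itga1 was at 471, 725 and 557 CPM against 15.2, 18.6 and 7.46 CPM. Of 9 complement genes only Serping1, the C1 inhibitor, was higher (557, 2094 and 336 CPM, 5.33 ± 1.15, adjusted p = 0.035), and 7 were with the block, among them C3 (1033, 1571 and 123 CPM against 385, 101 and 19.6 CPM, adjusted p = 0.45, and 1e-05 with the block).

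**Figure D3:**
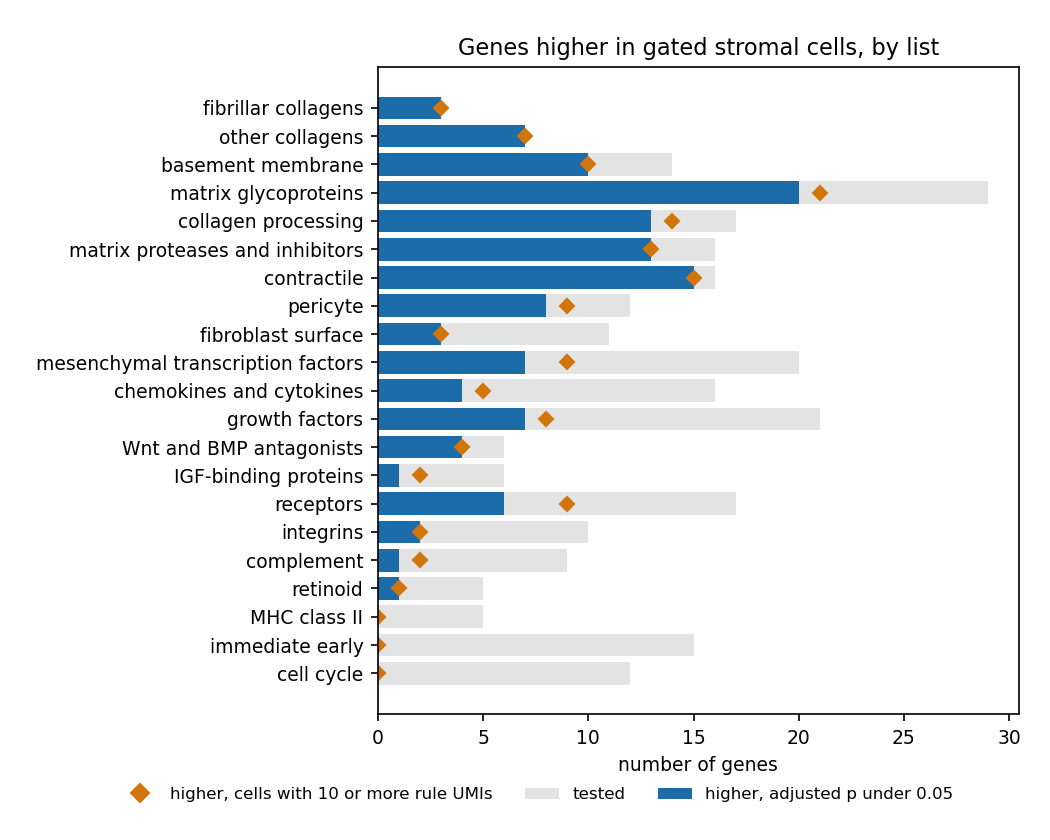
Number of genes (x axis) tested in each gene list (grey bars) and, over them, the number higher in the gated cells than in all other kept cells at an adjusted p under 0.05 (blue bars); orange diamonds give that number when only stroma-rich cells are used. Of the contractile genes 15 of 16 and of the matrix glycoproteins 20 of 29 were higher, against 0 of 15 immediate early and 0 of 12 cell cycle genes.

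Immediate early genes, which tissue dissociation is known to induce, were summed at 6223, 20800 and 5468 CPM in the gated cells and at 7982, 4339 and 2111 CPM in the others, and 0 of 15 were called higher or lower (3 higher with the block). Their part in the chemokine levels of tumor 2 was not tested. Of the 12 cell cycle genes 0 were called, and 2 were lower with the block. Their sum was 384, 322 and 720 CPM in the gated cells against 342, 1899 and 2288 CPM in the others. The 8 lower genes included Retnlg, a neutrophil gene, at 5.77, 0 and 0 CPM against 448, 506 and 15.9 CPM (-6.20 ± 1.42, adjusted p = 0.046), Cd5l, a macrophage gene (adjusted p = 0.025), and Plvap of fenestrated endothelium (adjusted p = 0.027). The other 5 were Pf4, Pcdh17, Rbp7, Esm1 and Amer2. Pcdh17, Rbp7 and Esm1 were also among the largest differences to the endothelial cells described further on. The rule limits endothelial genes in the gated cells only, so lower levels of such genes, Plvap among them, were largely fixed beforehand.

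Genes of other cell types were summed in the same way. The 5 leukocyte genes stood at 3062, 20.1 and 0 CPM in the gated cells and at 6584, 1417 and 1150 CPM in the others, and at 465 CPM in the stroma-rich cells of tumor 1. The 7 macrophage genes stood at 3695, 40.3 and 49.1 CPM and the 5 MHC class II genes at 4319, 0 and 40.9 CPM, so this RNA was found almost entirely in tumor 1, where the stroma-rich cells held 822 and 714 CPM. The 11 tumor cell genes stood at 107, 242 and 933 CPM against 219, 2370 and 2816 CPM. The 12 endothelial genes, 6 of them in the rule, stood at 223, 242 and 164 CPM against 555, 327 and 263 CPM. Schwann genes stood at 91.1, 0 and 196 CPM against 6.96, 4.46 and 10.4 CPM, higher in the gated cells of tumors 1 and 3. Of the gated cells 4 carried at least 3 of the 8 Schwann genes, 3 in tumor 1 and 1 in tumor 3, and all were counted as fibroblast cells although they had no UMI of Dcn or Lum. Neutrophil genes stood at 870, 20.1 and 0 CPM, red cell genes at 1215, 40.3 and 106 CPM, T cell genes at 237, 20.1 and 0 CPM, B cell genes at 63.5, 0 and 0 CPM, and mesothelial, lymphatic endothelial, adrenal cortex and skeletal muscle genes at 49.1 CPM or less in each tumor. The 4 adipocyte genes summed to 1251, 1692 and 1130 CPM against 250.2, 507 and 117 CPM, higher in the gated cells of every tumor. The endothelial cells described further on stood higher still, at 2173, 15650 and 2385 CPM. Of the 4 genes, Adipoq and Plin1 were at 0 in the gated cells. Lpl, encoding lipoprotein lipase, was higher in them than in all other kept cells (672, 322 and 458 CPM, 3.77 ± 0.54, adjusted p = 0.0054).

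Signature lists from the study's supplement were counted as well, and 2 of them, CAF-S1 and CAF-S4, come from human breast and ovarian cancers. Of the CAF-S1 genes, 47 of 145 tested were higher (median 1.70), and of the CAF-S4 genes 49 of 146 (median 1.54), against 3.90% of all genes. Both lists hold genes of the rule, 7 and 2. Of the differentiated perivascular-like genes Tagln, Mylk and Cnn1 were higher and Cd9 was not (230, 201 and 327 CPM against 315, 76.2 and 55 CPM, adjusted p = 0.75). Of the immature perivascular-like genes outside the rule Itga1 was higher, whereas Rhob (adjusted p = 0.7) and Cd36 (8.98, 0 and 0 CPM, adjusted p = 0.5) were not called. Of 11 tested inflammatory CAF genes 2 were higher, as were 2 of 5 myofibroblastic CAF genes.

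Cells with more UMIs of Rgs5 and Notch3 than of Dcn and Lum were then set apart as perivascular cells, 60 in all (41, 3 and 16 in tumors 1, 2 and 3), and the other 86 (72, 3 and 11) were called fibroblast cells by this rule. The name holds less firmly for the latter, since 24 of them had no UMI of the 4 genes and 50 had fewer than 10 stromal UMIs. The perivascular name was weakly based too for part of tumor 1, where 17 of 41 such cells had fewer than 10 stromal UMIs. At least 2 leukocyte genes were found in 21 of the 41, and 13 were in both groups. Of all 146 cells 25 had UMIs of both pairs of genes. Among the stroma-rich cells 42 were perivascular (24, 3 and 15) and 36 fibroblast (29, 3 and 4). Rgs5 was detected in 39 of the 42 and 2 of the 36, and Dcn in 11 and 33, as the split requires. For background, Rgs5 had a UMI in 65 of 1527 leukocytes (4.26%) and Dcn in 77 (5.04%).

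**Figure D4:**
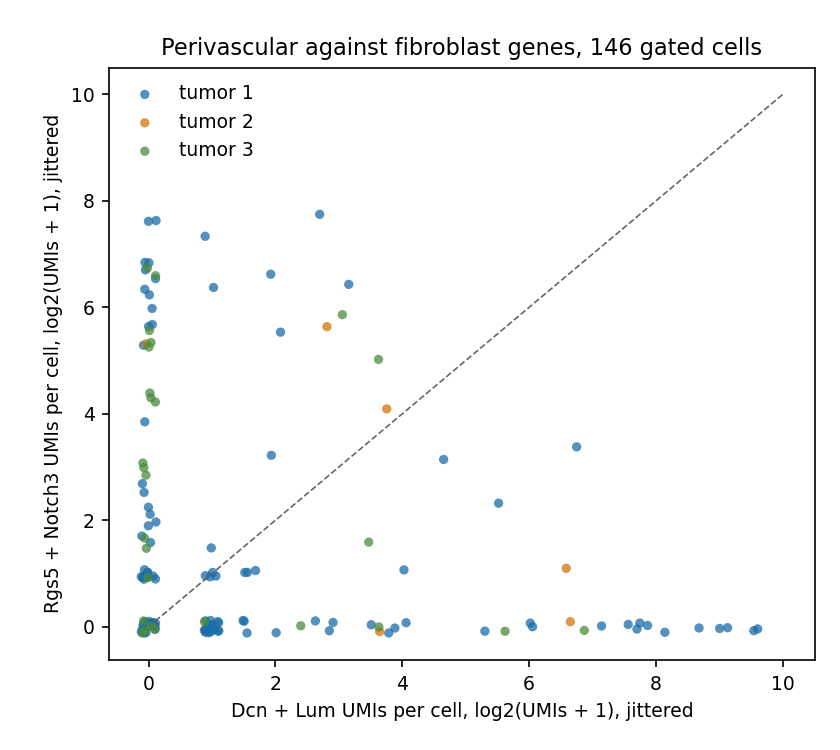
Each point is 1 of the 146 gated cells, with its UMIs of Dcn and Lum on the x axis and of Rgs5 and Notch3 on the y axis, both as log2(UMIs + 1) with a small random shift; colors give the tumor and cells above the dashed line of equal counts are the 60 perivascular cells. Most cells lie along 1 of the axes, 25 have UMIs of both pairs, and 24 have none and sit at the origin.

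With the sums of at least 5 cells foreseen for this comparison, only tumors 1 and 3 entered, and the test called 0 of 4993 genes (0%), with 207 higher and 155 lower in perivascular cells at unadjusted p under 0.05. DESeq2 called 32 higher and 31 lower on the same sums, and edgeR with the tumor as a block 223 higher and 198 lower. Accepting sums of 3 cells, which adds tumor 2 and was chosen after the data were seen, 39 of 817 genes were higher (4.77%) and 18 lower (2.20%) in perivascular cells. The tumor as a block gave 62 higher and 39 lower of the same 817 genes. Values below are from the unblocked comparison of all 3 tumors unless stated. Its gene set is small because a gene had to reach the count filter in the 3-cell sums.

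Of the 18 smooth muscle contractile genes 11 passed the count filter, and 10 of these were higher in perivascular cells. Some, such as Myh11 and Actg2, had few UMIs in the fibroblast cells and passed the filter through the perivascular cells alone. Their direction was fixed beforehand, so this count is a description. Myh11 was at 619, 1874 and 469 CPM in perivascular and at 0, 0 and 51.3 CPM, or 2 UMIs, in fibroblast cells, a ratio of 340 (counting interval 93.5 to 2815, adjusted p = 0.014). Acta2 was at 5840, 5621 and 4690 CPM against 90.4, 0 and 897 CPM (4.33 ± 0.96, adjusted p = 0.027). Actg2, the enteric smooth muscle actin gene, was at 633, 288 and 397 CPM against 2.01, 0 and 0 CPM, or 2 UMIs, a ratio of 315 (86.7 to 2612, adjusted p = 0.00092). The groups did not overlap in any of these, and tumor 3 had the highest fibroblast value of Acta2. These are called genes, and non-overlap among all tested genes was not counted. Myl9 (6.05 ± 0.59), the intermediate filament gene Des (7.06 ± 0.87) and the myosin kinase Mylk (7.22 ± 0.89) were higher too. Tagln was at 3215, 3363 and 3151 CPM against 65.3, 0 and 795 CPM (3.81 ± 0.98, adjusted p = 0.051, and 0.027 in the stroma-rich cells). Among stroma-rich cells Myh11 was detected in 34 of 42 perivascular and 1 of 36 fibroblast cells, against 10 of 1527 leukocytes, and Acta2 in 40 of 42 and 10 of 36, against 205 of 1527 leukocytes. The leukocytes were shallower, with a median of 5107 UMIs in tumor 1 against 14640 and 13137 in its stroma-rich perivascular and fibroblast cells. With each cell of tumor 1 thinned to 500 UMIs, Myh11 would be found in 33.0% of the 24 stroma-rich perivascular cells, 0% of the 29 fibroblast cells and 0.0878% of leukocytes.

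Of 9 tested basement membrane genes 4 were higher in perivascular cells, the collagen genes Col4a1, Col4a2, Col15a1 and Col18a1, and 5 were not called. Col4a1 was at 5191, 4324 and 3355 CPM against 637, 416 and 718 CPM (2.98 ± 0.34, adjusted p = 0.0014) and Col4a2 at 2481, 2498 and 1912 CPM against 274, 243 and 333 CPM (3.14 ± 0.36, adjusted p = 0.0014). Col18a1 and Col15a1 were higher by 4.04 ± 0.64 and 2.65 ± 0.54 (adjusted p = 0.0065 and 0.019), while Nid1 was not called (0.19 ± 0.62, adjusted p = 0.93). The 3 tested fibrillar collagens were not called, nor were Fn1 (4672, 4612 and 2177 CPM against 2729, 2288 and 2332 CPM, adjusted p = 0.35) and Postn (adjusted p = 0.91). Mgp was at 10400, 19074 and 13277 CPM against 1202, 2808 and 6023 CPM (2.27 ± 0.51, adjusted p = 0.029), and Igfbp7 was higher by 2.0 ± 0.34 (adjusted p = 0.0088).

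Of the 38 growth factor genes only Angpt2 and Pdgfa passed the count filter. Both had few UMIs in fibroblast cells and passed it through the perivascular cells, so their direction was largely fixed beforehand. Over the whole list the perivascular sums were 1958, 1826 and 1106 CPM and the fibroblast sums 1141, 1179 and 2537 CPM, with tumor 3 in the opposite order to tumors 1 and 2. Angpt2 was at 257, 288 and 168 CPM against 2.01, 0 and 0 CPM, or 2 UMIs, a ratio of 131 (counting interval 35.8 to 1093, adjusted p = 0.0014), and Pdgfa at 335, 288 and 241 CPM against 31.1, 0 and 25.6 CPM (3.47 ± 0.53, adjusted p = 0.0052). The pericyte genes Mcam (443, 528 and 517 CPM against 49.2, 0 and 25.6 CPM, 3.70 ± 0.52) and Ndufa4l2 (2.82 ± 0.66) were higher, as was Itga1 (4.33 ± 0.69, adjusted p = 0.0067). Mcam, low or at 0 in the fibroblast sums, also passed the filter through the perivascular cells. Some genes of the endothelial list were higher in this class: the 12 genes summed to 388, 529 and 217 CPM in perivascular and to 129, 34.7 and 51.3 CPM in fibroblast cells. Flt1, a gene of the rule, was at 154, 384 and 36.1 CPM against 9.04, 0 and 0 CPM. It held most of the perivascular sum of the 6 endothelial rule genes (197, 384 and 48.1 CPM). Only 8, 3 and 3 of the 12 genes had a perivascular UMI, and Egfl7, Vwf, Tie1 and Ramp2 had none. Angpt2 was at 90, 603 and 65.2 CPM in the endothelial cells described further on, and Mcam was detected in 51 of these 70 cells. The part of endothelial RNA in these levels was not tested.

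Fibroblast cells were higher in 18 of 817 genes (2.20%). Among them were 3 of 17 tested matrix glycoproteins, 2 of 3 IGF-binding proteins and Sfrp2, the 1 Wnt or BMP antagonist tested. Sfrp2, with no perivascular UMI, passed the count filter through the fibroblast cells alone, so its direction was fixed beforehand. Clec3b and C3, low or at 0 in the perivascular sums, come close to this. Other RNA moved with the fibroblast class. In tumor 1 the 7 macrophage genes summed to 5125 CPM in fibroblast and 1171 CPM in perivascular cells (961 and 637 CPM among stroma-rich cells). At least 2 leukocyte genes were found in 49 of its 72 fibroblast and 21 of its 41 perivascular cells. The 8 Schwann genes summed to 133, 0 and 487 CPM against 17.7, 0 and 60.1 CPM. The part of this RNA in the fibroblast levels was not tested. Sfrp2 had no UMI in the 60 perivascular cells and stood at 534, 797 and 231 CPM in fibroblast cells, at least 118-fold higher when 3 UMIs over the perivascular cells are taken as the limit (adjusted p = 0.0042). It was detected in 20 of 36 stroma-rich fibroblast cells, against 15 of 1527 leukocytes. Of the 20 cells 18 were from tumor 1, and the values of tumors 2 and 3 came from 1 cell each, with 23 and 9 UMIs. Clec3b was at 7.09, 48 and 12 CPM in perivascular and 732, 2115 and 564 CPM in fibroblast cells (-6.58 ± 0.94, adjusted p = 0.0037). Mfap5, a component of elastic microfibrils, stood at 103, 96.1 and 204 CPM against 1321, 2566 and 923 CPM (-3.49 ± 0.57, adjusted p = 0.0071). Dpt (-4.04 ± 0.56), Ogn, a small leucine-rich proteoglycan (-5.27 ± 1.02), Igfbp6 (-3.48 ± 0.58), Igfbp4 (-5.04 ± 0.92), Islr (-2.95 ± 0.63) and Mmp2 (-2.37 ± 0.57) were lower in perivascular cells. The complement gene C3 was at 114, 0 and 0 CPM in perivascular against 1554, 2704 and 384 CPM in fibroblast cells (-4.59 ± 1.11, adjusted p = 0.04). In each of these genes the 3 fibroblast sums lay above all 3 perivascular sums, which describes called genes only. How many of all tested genes separate in this way was not counted.

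The chemokines divided less clearly. Cxcl12 was at 5.32, 0 and 0 CPM in perivascular and 186, 971 and 76.9 CPM in fibroblast cells. It did not reach the count filter of the 3-tumor comparison, and on tumors 1 and 3 it was lower in perivascular cells only with the block (-5.16 ± 0.77, adjusted p = 1.6e-09, and 0.091 without). Cxcl1 was at 31.9, 961 and 48.1 CPM against 497, 1872 and 103 CPM (adjusted p = 0.73), and Ccl2 at 227, 1201 and 192 CPM against 280, 312 and 231 CPM (adjusted p = 0.69). For Ccl2 the perivascular sum of tumor 2 was highest of all, and its 3 cells held 25 UMIs of the gene. Of the CAF-S4 genes 17 of 24 tested were higher in perivascular cells and 0 lower (median 3.51). Of the CAF-S1 genes 1 of 30 was higher and 6 lower (median -0.67). Of all tested genes 4.77% were higher and 2.20% lower, and their median was 0.04. Only these 24 of 231 and 30 of 234 genes passed the count filter, which a gene can do through 1 class alone. The list counts are therefore a description.

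**Figure D5:**
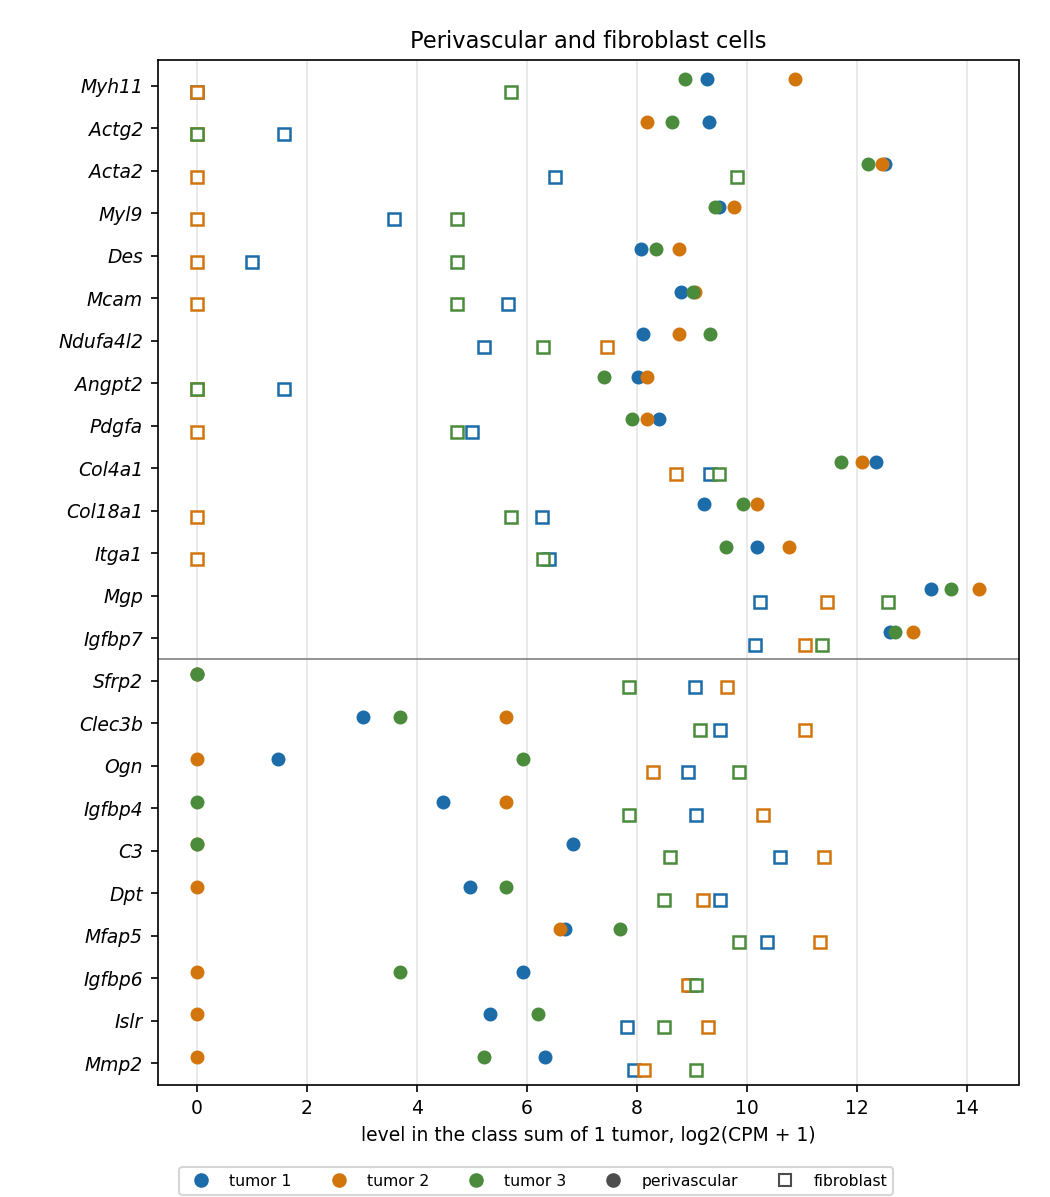
Level of 24 genes in each tumor as log2(CPM + 1) on the x axis, with filled circles for perivascular and open squares for fibroblast cells, 1 color per tumor; genes above the grey line were higher and genes below it lower in perivascular cells. In the contractile genes, Angpt2 and Col4a1 the 3 circles lie right of the squares, and Sfrp2 has its 3 circles at 0.

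Endothelial cells, the neighbors of perivascular cells in the vessel wall, were taken as 70 kept cells (36, 11 and 23) with at least 3 of the 6 endothelial genes, fewer than 3 stromal genes and fewer than 2 mesothelial genes. Against them, 128 of 1913 genes were higher (6.69%) and 184 lower (9.62%) in all gated stromal cells. With the tumor as a block 173 genes were higher and 215 lower. Higher were 9 of 9 tested collagens outside the basement membrane, 10 of 10 contractile genes and 17 of 22 matrix glycoproteins. Many of these had no UMI in endothelial cells, such as Col6a3, Col12a1, Col14a1, Actg2 and Des, and passed the count filter through the stromal cells alone, so these counts were largely fixed beforehand. Col6a3, Col14a1, Myl9, Dpt and Ogn had no UMI in the 70 endothelial cells and were at least 151-, 137-, 57.1-, 89.5- and 62.0-fold higher in the gated cells, taking 3 UMIs over the 70 cells as the limit. Rarres2, encoding chemerin (212, 886 and 278 CPM), Igfbp6 and Ndufa4l2 were likewise at 0 there and at least 47.2-, 66.2- and 30.3-fold higher. Mgp was at 190, 14 and 46.6 CPM in endothelial cells (6.51 ± 0.75, adjusted p = 0.00033) and Fn1 at 386, 182 and 214 CPM (3.65 ± 0.41, adjusted p = 0.00029).

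Of 11 tested basement membrane genes 0 were higher in the gated stromal cells, 4 were lower and 7 were not called (median -0.85, against -0.0027 for all tested genes, of which 9.62% were lower). Nid2 was at 35.9, 40.3 and 32.7 CPM against 374, 168 and 522 CPM (-3.14 ± 0.46, adjusted p = 0.0012), and the proteoglycan Hspg2, or perlecan, at 214, 40.3 and 147 CPM against 1024, 547 and 680 CPM (-2.15 ± 0.49, adjusted p = 0.014). Col4a2 (-0.85 ± 0.25) and the laminin chain Lamb1 (-1.56 ± 0.44) were lower at adjusted p = 0.047 and 0.041. In the stroma-rich cells, where 8.55% of all 1847 genes were higher and 10.3% lower, Nid2 alone of the 11 was called, and Hspg2, Col4a2 and Lamb1 had adjusted p = 0.053, 0.21 and 0.18. Col4a1 (-0.58 ± 0.31, adjusted p = 0.32) and Igfbp7 (-0.22 ± 0.24, adjusted p = 0.69) were not called. The platelet-derived growth factor genes split, with Pdgfa higher (141, 121 and 172 CPM against 52.1, 0 and 37.3 CPM, 2.06 ± 0.52, adjusted p = 0.024) and Pdgfb lower in stromal cells (19.9, 40.3 and 0 CPM against 213, 168 and 149 CPM, -3.12 ± 0.57, adjusted p = 0.004).

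Cxcl12 was at 187, 112 and 130 CPM in endothelial cells, within the range of the stromal tumors (0.52 ± 0.86, adjusted p = 0.84). Igfbp3 was at 2241, 1598 and 3597 CPM there against 22.4, 0 and 73.7 CPM (-6.06 ± 0.64, adjusted p = 0.00024). The largest differences to the endothelial side were genes with no more than 1 UMI in the stromal cells. Such genes passed the count filter through the endothelial cells alone, and the rule itself limits endothelial genes in the gated cells. Their direction was thus largely fixed beforehand. Rbp7, Esm1, Mmrn2, Tie1, Robo4 and Afap1l1 had 0, and Pcdh17 and the endothelin receptor Ednrb 1 UMI each. Ednrb was at 348, 631 and 447 CPM in endothelial cells. The other endothelin receptor gene, Ednra, had no UMI in the 70 endothelial cells and was at 27.6, 20.1 and 164 CPM in the stromal cells, so these receptor genes were found in opposite classes.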

How the data were processed

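Whole TH-MYCN tumors of 3 mice were profiled, 1 library each. The authors deposited raw UMI counts for every called barcode, made with Cell Ranger 3.1.0 on mm10 according to the submitters' notes, and a table for the kept cells, made with Seurat (3.1.5 and 3), whose entries are natural logs, log(1 + x), of corrected counts x. The corrected values served only to name the kept cells and, in an alternative, to apply the rule. Within each tumor the raw counts of a class were added up, and CPM divides by that sum.

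Tests used edgeR 4.0.16 (glmQLFit, glmQLFTest, TMM, filterByExpr, Benjamini-Hochberg over all tested genes) in R 4.3.3, with the tumor as the replicate and sums of at least 5 cells. DESeq2 1.42.0 was an alternative. The 18 genes of the rule stayed in library sizes and out of the tests. The steps were tested on simulated data. A fold against a class at 0 takes 3 UMIs over that class as its limit.

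Each tumor is 1 animal, so its classes are paired. Deviations from class means correlated at 0.433, 0.0764 and 0.386 within tumors 1, 2 and 3 for stromal against other cells, and at -0.378 to 0.242 between tumors. For that comparison a fit with the tumor as a block therefore stands beside results it changes. Within tumors 1, 2 and 3 they were 0.332, 0.126 and 0.312 for perivascular against fibroblast cells (-0.227 to -0.0265 between tumors). Against endothelial cells they were 0.283, 0.156 and 0.340 (-0.214 to -0.0326 between tumors). For perivascular against fibroblast cells in all 3 tumors only the counts of the blocked fit are given. Gene values there and against endothelial cells are unblocked, and blocked values of genes not called in them are not given. P-values of the unblocked fits measure the spread between the tumors in each fit, at most 3. The perivascular test on tumors 1 and 3 had 2 sums per class. P-values of the blocked fits concern differences between classes within a tumor, from 3 pairs of sums, or 2 on tumors 1 and 3. With so few pairs, very small blocked p-values should not be read as certainty between tumors.

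The cells, lists and tests were chosen with earlier results of these data known. Named were the genes of the rule, genes the study names for CAFs, up to 4 members per list with the highest stromal level, and up to 8 genes per direction and comparison with the largest change at a mean of at least 50 CPM. List members called, and Pf4, Pcdh17, Rbp7, Esm1 and Amer2, were named after their values were seen, as were the comparisons on cells with at least 10 stromal UMIs, without leukocyte-positive cells and on sums of 3 cells. Doublets were not called here, and no statement of their removal was found in the sources used here.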

Additional observations from a re-analysis of the deposited data

Results flagged for a closer look

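The raw tables also hold barcodes that the study did not keep, and some of them met the gene rule: 52 of 1343 in tumor 1, 4 of 3106 in tumor 2 and 15 of 3523 in tumor 3. They had a median of 65.5, 68.5 and 48 UMIs of the 9 stromal genes, and 33, 4 and 11 of them had at least 10. Their median mitochondrial share was 24.8%, 11.5% and 20.7% of UMIs, against 27.9%, 35.0% and 37.7% in the other barcodes that were not kept. They entered no comparison.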

How the results depend on the processing

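Tumor 2 with its 6 gated cells, the low-count filter and the pairing of classes within a tumor moved the counts, and the cause of each shift was not tested. For gated against all other kept cells, 423 genes were higher and 8 lower. The block gave 789 and 226, and in the stroma-rich cells 969 and 709. DESeq2 gave 26 lower, no filter 41, a rule of 4 stromal genes 22, the rule on corrected counts 38, stroma-rich cells 54 and cells without leukocyte genes 113. DESeq2 in the stroma-rich cells gave 694 higher and 223 lower, and library sizes without TMM 70 lower. Leaving out 1 tumor gave 0 to 602 higher and 0 to 156 lower, and in the stroma-rich cells 80 to 541 and 2 to 153 (90 without tumor 3).

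For perivascular against fibroblast cells, where the 5-cell sums gave 0 and 0 (207 and 155 at unadjusted p under 0.05, edgeR), library sizes without TMM gave 11 higher and 5 lower, DESeq2 32 and 31, no filter 93 and 116, and the block 223 and 198. The rule of 4 genes gave 213 and 344 and stroma-rich cells 209 and 337, or 36 and 65 by DESeq2 and 211 and 293 without TMM. Those alternatives compare 2 perivascular sums with 1 fibroblast sum, assumed to vary like the others. The corrected counts gave 35 and 56, no leukocyte-positive cells 47 and 45, no cells without a split UMI 45 and 62, and a split by at least 2 UMIs 78 and 81. Sums of 3 cells gave 39 and 18, 47 and 40 in stroma-rich cells, and 62 and 39 with the block. Leaving out tumor 1 or 3 left 1 tumor, and the block on stroma-rich sums of 5 cells could not be fitted. The gate without leukocyte- or tumor-positive cells left too few sums and was not run.

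Against endothelial cells no filter gave 740 higher and 427 lower, and leaving out 1 tumor 107 to 230 higher and 114 to 251 lower. The stromal share of kept cells went from 2.49% to 6.34% when 2 genes sufficed, 1.51% under the 4-gene rule, 1.34% in stroma-rich cells, 1.27% without leukocyte-positive cells and 0.783% without tumor 1 (3.49% without tumor 2). The block changed no call among the 16 genes named for the endothelial comparison by the rule of largest change.

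The sign of the log2 fold change turned for some genes that were not called. Klf2 was at -0.046 with no filter, at -0.46 to 1.08 when 1 tumor was left out and at -0.059 without leukocyte-positive cells. Itga4 was at -0.024 with no filter, -0.26 to 2.03 when 1 tumor was left out, -0.15 under the 4-gene rule, -0.50 on corrected counts, -0.28 in stroma-rich cells and -0.45 without leukocyte-positive cells. With 1 tumor left out, Tgfb1 ran from -0.35 to 0.12, Sfrp4 from -7.67 (without tumor 1) to 4.2 and Igfbp5 from -0.16 to 1.15. Between perivascular and fibroblast cells Ccl2 was at 0.90 on sums of 3 cells and 0.53 on those of stroma-rich cells, and Fn1 at -0.0093 under the 4-gene rule and -0.21 in stroma-rich cells. Of the 87 genes named against all other kept cells, 56 lost their call without tumor 2.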
